A study of Mus musculus with 6 samples.

Results

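The transcripts of 10 genes that report on the unfolded protein response (UPR) and the integrated stress response (ISR) were followed in mouse primary oligodendrocyte precursor cells (mOPCs) after knockdown of Qk. These were Atf4, Ddit3, Trib3, Chac1, Asns, Sesn2, Ppp1r15a, Ern1, Xbp1 and Herpud1, taken by symbol from the 23038 genes that each file lists. All 10 had an average logCPM over 0 and were among the 12505 genes tested. Of the 10, 3 were called changed: Xbp1 rose, and Ddit3 and Trib3 fell. The level of Atf4 itself did not pass the test.

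The mOPCs were purified by immunopanning from mouse embryos of embryonic day 14.5, and were transfected with control siRNAs (siNC, 3 libraries) or with siRNAs against Qk (siQk, 3 libraries). All were collected 72 h later. Qk encodes the Qki RNA-binding proteins, and siRNA lowers its transcript without altering the gene. The study used 3 different siQk siRNAs, but which library received which of them is not given in the sources used here. No genotype or strain of the embryos is given in the sources used here. The labels call the libraries biological replicates and name no separate litters or culture dates, so the p-values measure the spread between these libraries, part of which may be technical. In siQk, part of this spread may also come from the different siRNAs.

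The ER senses misfolded proteins in its lumen through IRE1, PERK and ATF6, and the signals of these sensors make up the UPR. IRE1 (Ern1) splices the Xbp1 transcript so that it encodes an active transcription factor for chaperones, translocation and ER-associated degradation, and ATF6 is cut to release another such factor. PERK phosphorylates the translation factor eIF2α, as do GCN2 upon lack of amino acids, PKR upon double-stranded RNA and HRI upon lack of heme. Because these kinases converge on eIF2α, the common branch is called the ISR. It lowers general translation but favours translation of ATF4, which raises genes of amino acid supply, its partner CHOP (Ddit3), and the feedback regulators Trib3 and Ppp1r15a. Oligodendrocytes make large amounts of membrane and secretory-pathway protein, and these responses are well known from disorders of myelin.

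Promoters of the genes whose results are followed most closely are shown first, since ATF4, XBP1 and ATF6 act at known short DNA elements. Sequences are those of RefSeq (GRCm38.p6, the assembly of mm10), which had a promoter for 10 of the 10 genes. Windows of 300 bases, from 250 before the annotated start to 50 after it, were searched on both strands, and the first 280 bases are printed 5′ to 3′ on the strand of the gene. Capitals mark matches. The CARE element bound by ATF4 with a C/EBP partner was searched as TGATGNAA, a CRE-like variant as TGACGNAA, the UPRE core as TGACGTG, and the ER stress elements ERSE-II and ERSE, which join a CCAAT box or its reverse to CCACG with a short or a longer spacer, by their usual consensus. A CARE match was present in 4 of the 10 windows, against 3.97% of 32851 promoters, which include those of genes not tested here. Of the 9975 tested genes matched to a promoter, 261 held it. The 10 genes were chosen as readouts of the ATF4, CHOP and XBP1 branches, so their matches are not independent of that choice. Trib3, Chac1, Asns and Herpud1 held it and are shown for that reason.

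Trib3 (chr2:152344031-152344310, minus strand), with CARE from position 15 to 22 after the start:
Trib3: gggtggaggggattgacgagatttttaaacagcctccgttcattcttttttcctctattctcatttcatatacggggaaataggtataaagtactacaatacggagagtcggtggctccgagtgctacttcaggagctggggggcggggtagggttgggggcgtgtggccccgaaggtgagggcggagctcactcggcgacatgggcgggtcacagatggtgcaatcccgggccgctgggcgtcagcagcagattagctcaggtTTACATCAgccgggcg
Chac1 (chr2:119350992-119351271, plus strand), with the CRE-like element first and CARE after it:
Chac1: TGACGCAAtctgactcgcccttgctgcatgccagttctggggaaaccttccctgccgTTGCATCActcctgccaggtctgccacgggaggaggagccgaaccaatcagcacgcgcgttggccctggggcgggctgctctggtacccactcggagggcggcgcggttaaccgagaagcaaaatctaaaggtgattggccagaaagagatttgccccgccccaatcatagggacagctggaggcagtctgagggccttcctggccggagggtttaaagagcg
Asns (chr6:7693180-7693459, minus strand), with CARE just before the start:
Asns: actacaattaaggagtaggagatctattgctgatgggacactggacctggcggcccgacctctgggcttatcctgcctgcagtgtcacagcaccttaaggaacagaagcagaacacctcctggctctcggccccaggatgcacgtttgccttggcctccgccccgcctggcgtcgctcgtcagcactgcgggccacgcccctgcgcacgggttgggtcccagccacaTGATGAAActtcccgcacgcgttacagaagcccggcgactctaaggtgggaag
Herpud1 (chr8:94386179-94386458, plus strand), with the CRE-like element, CARE and ERSE-II in that order:
Herpud1: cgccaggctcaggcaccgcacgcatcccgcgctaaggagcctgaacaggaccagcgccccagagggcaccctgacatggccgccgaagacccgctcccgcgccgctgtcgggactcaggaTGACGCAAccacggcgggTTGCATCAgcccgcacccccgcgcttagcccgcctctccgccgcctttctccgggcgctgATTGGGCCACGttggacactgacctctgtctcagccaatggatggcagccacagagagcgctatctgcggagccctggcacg

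The CRE-like element was in 2 of the 10 windows, against 1.59% of all promoters, and ERSE-II in 1, against 0.0365%. ERSE and the UPRE core were in 0 of the 10, against 0.119% and 2.01%. Of the 9975 tested genes matched to a promoter, 315 held the CRE-like element, 8 ERSE-II, 16 ERSE and 332 the UPRE core. In all, 7.51% of the promoters held at least 1 of the 5 elements. Ddit3 and Xbp1, which were called changed, held none of these letters within the window and are printed for comparison. A missing match says only that the letters are not in this window.

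Ddit3 (chr10:127290543-127290822, plus strand):
Ddit3: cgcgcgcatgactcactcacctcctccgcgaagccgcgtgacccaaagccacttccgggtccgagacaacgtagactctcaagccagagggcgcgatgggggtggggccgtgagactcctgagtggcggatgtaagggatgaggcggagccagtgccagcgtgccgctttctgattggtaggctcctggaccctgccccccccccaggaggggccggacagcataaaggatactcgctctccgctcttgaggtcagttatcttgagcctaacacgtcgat
Xbp1 (chr11:5520391-5520670, plus strand):
Xbp1: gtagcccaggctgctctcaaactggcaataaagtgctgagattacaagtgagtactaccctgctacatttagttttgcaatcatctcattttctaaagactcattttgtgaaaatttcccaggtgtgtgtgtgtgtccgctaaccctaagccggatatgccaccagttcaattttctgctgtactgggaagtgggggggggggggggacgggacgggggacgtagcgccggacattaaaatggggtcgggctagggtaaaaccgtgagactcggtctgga

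The members with a CARE match did not move alike: Trib3 fell, while Chac1, Asns and Herpud1 were not called. Over all genes, 261 tested genes had a promoter with a CARE match, and 30.7% of these were called changed, 30 higher and 50 lower in siQk, which is near the 31.0% of all tested genes that were called.

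Libraries held 58166490 to 141045937 tags, a tag number being the authors' estimated count, and the RPKM is that count scaled by the gene's exon length and the library total. TMM factors of edgeR were 0.899 to 0.987 in siNC and 1.05 to 1.07 in siQk, so that RPKM, which carries no such factor, lies higher in siQk than the fitted fold changes do. Fold changes are log2 of siQk over siNC. A gene was called changed at P below 0.01 and an FDR below 0.1 from edgeR's quasi-likelihood test, with the FDR taken over all genes tested. The ribosomal gene Rn45s took 3.11% of the tags in siNC replicate 1, which had the lowest total, and 0.169% to 0.389% in the others. Qk (Entrez gene 19317) stood at 209, 206 and 163 RPKM in siNC and at 51.3, 76.6 and 36.2 RPKM in siQk, a log2 fold change of -1.98 (SE 0.28, FDR 0.00311).

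Of all tested genes, 31.0% were called changed, 13.8% higher and 17.2% lower, so the 3 called of the 10 stress genes were close to that background. The median log2 fold change of the 10 was 0.22, beside 0.010 over all tested genes, and it was 0.13 without siNC replicate 2. Trib3, Ddit3 and Atf4 lay below the median of all tested genes. In RPKM, the siQk range lay wholly above the siNC range for 6 of the 10 genes and wholly below it for 2, while 58.3% of all tested genes had ranges that do not overlap. For each of these 8 genes the exact two-sided permutation test gave p = 0.1, the smallest that 3 libraries against 3 allow, and for Atf4 and Chac1 it gave p = 0.3. Once TMM factors were applied to the RPKM, 4 genes lay above and 2 below, against 54.4% of tested genes apart. Herpud1 and Ppp1r15a were the genes that then overlapped.

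**Figure D1:**
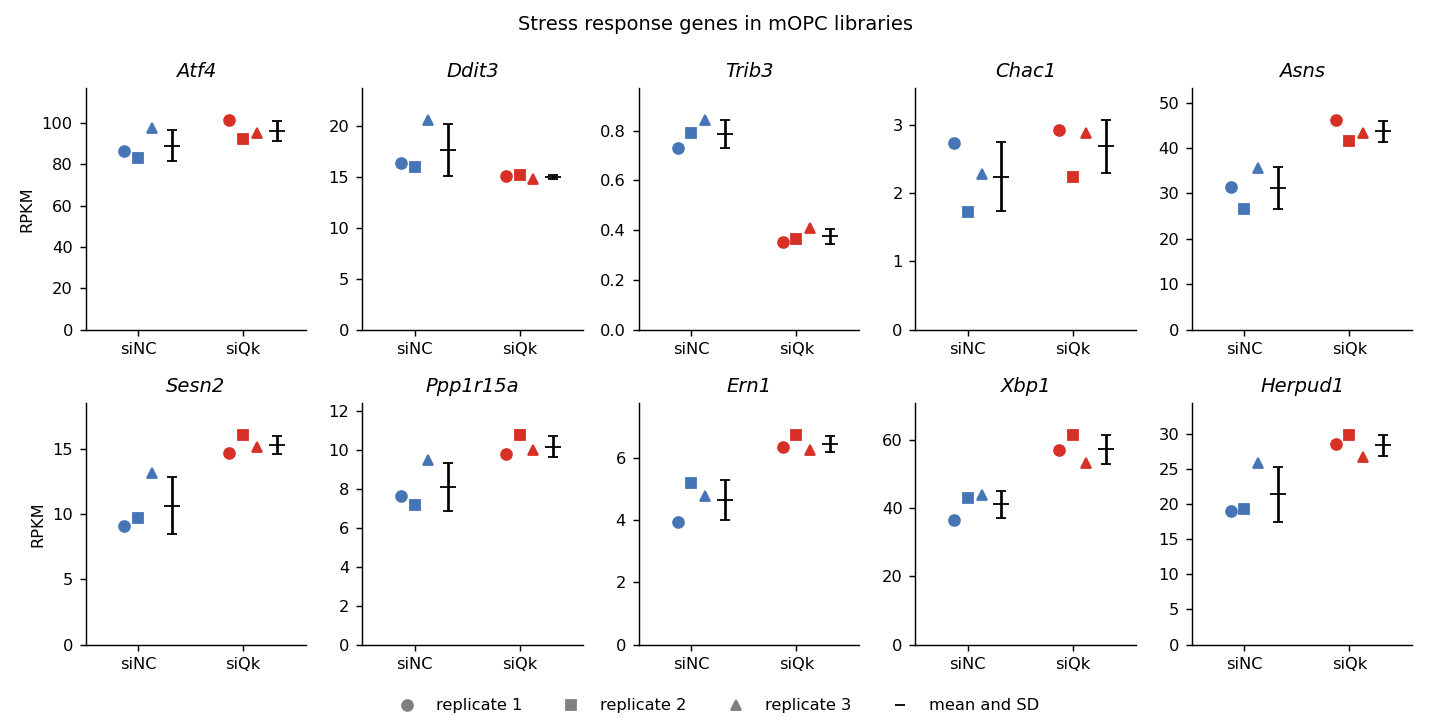
Level of each of the 10 stress genes in RPKM (linear axes from 0) in the 3 siNC libraries (blue) and the 3 siQk libraries (red), with symbols for the replicate number and a bar for the mean and SD. Trib3 and Ddit3 lie lower in every siQk library, Atf4 and Chac1 overlap, and the other 6 lie higher in siQk, of which Xbp1 was called changed.

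The transcription factor Atf4 (Entrez gene 11911, chr15:80255184-80257545, plus strand) is the hub of the ISR and is itself regulated mainly through its translation, which RNA levels do not show. It was the most abundant of the 10 genes, at 86.3, 83.2 and 97.7 RPKM in siNC and 101.6, 92.1 and 95.2 RPKM in siQk. These ranges overlapped. The means were 89.1 ± 7.62 and 96.3 ± 4.83 RPKM (SD, n = 3 each). The log2 fold change was -0.038 (SE 0.076, FDR 0.714), and its sign turned with upper quartile scaling (0.022), with library size only (0.11), without siNC replicate 3 (0.0044) and without siQk replicate 2 (0.0024). Of the tested genes, 44.7% had a lower fold change than Atf4, which therefore stood near the middle.

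Ddit3 (Entrez gene 13198, chr10:127290793-127296291, plus strand) encodes CHOP, the ATF4 partner linked to cell death under lasting stress. It stood at 16.3, 16.0 and 20.6 RPKM in siNC and at 15.1, 15.2 and 14.8 RPKM in siQk. The siQk libraries were tightly grouped and all lay below siNC, whose replicate 3 stood apart at the top. The means were 17.7 ± 2.57 and 15.0 ± 0.188 RPKM (SD, n = 3 each). Its log2 fold change was -0.38 (SE 0.10, FDR 0.0289). The call was kept in 5 of 16 alternative settings. It was lost without siNC replicate 3 (-0.28), without siNC replicate 1 (-0.40), without siQk replicate 1, 2 or 3 (-0.38 each), with upper quartile factors (-0.32) and with library size only (-0.23). It was also lost with no filter on low counts (-0.36), with filterByExpr (-0.37), with a replicate block (-0.37) and after thinning to the smallest library (-0.36), with the same sign in each of these 11 settings. Ddit3 overlaps Mbd6 and Mars1 in the annotation, and the library kit keeps no strand, so reads of the shared stretches cannot be told apart.

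Trib3 (Entrez gene 228775, chr2:152337425-152344060, minus strand) encodes a pseudokinase that is induced by ATF4 and CHOP and restrains both of them. It was the least abundant of the 10 genes and showed the largest change among them. It stood at 0.729, 0.792 and 0.842 RPKM in siNC and at 0.353, 0.366 and 0.409 RPKM in siQk. The groups were far apart relative to their spread, with means of 0.788 ± 0.0563 and 0.376 ± 0.0293 RPKM (SD, n = 3 each). On the log2 scale Trib3 changed by -1.22 (SE 0.16, FDR 0.00278), which leaves 0.430 of the siNC level. All 16 alternative settings kept this call. Behind these values were 62 to 228 tags per library, and 3.50% of tested genes had a lower fold change.

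Chac1 (Entrez gene 69065, chr2:119351242-119354326, plus strand), which encodes a glutathione-degrading enzyme and is a sensitive target of ATF4, stood at 2.73, 1.72 and 2.28 RPKM in siNC and at 2.93, 2.23 and 2.89 RPKM in siQk. The groups overlapped, and Chac1 had the widest spread of the 10 genes in both groups (22.5% and 14.5% of the mean). With a log2 fold change of 0.11 (SE 0.23, FDR 0.718), Chac1 did not pass the test, and the value was -0.058 without siNC replicate 2.

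Asns (Entrez gene 27053, chr6:7675165-7693209, minus strand), the asparagine synthetase gene and a classic target of ATF4, stood at 31.4, 26.6 and 35.7 RPKM in siNC and at 46.2, 41.5 and 43.3 RPKM in siQk. All siQk libraries lay above all siNC libraries. The log2 fold change of 0.33 (SE 0.11, FDR 0.0543) did not pass the P cutoff, and it did so only with library size alone (0.48) among the alternative settings. Means were 31.2 ± 4.55 and 43.7 ± 2.38 RPKM (SD, n = 3 each).

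Sesn2 (Entrez gene 230784, chr4:132492804-132510456, minus strand) encodes a leucine sensor that restrains mTORC1. Its levels were 9.11, 9.73 and 13.2 RPKM in siNC and 14.7, 16.1 and 15.1 RPKM in siQk. The siNC libraries spread widely, with replicate 3 nearest to siQk. Its log2 fold change of 0.37 (SE 0.12, FDR 0.0506) missed the P cutoff, but Sesn2 was called without siNC replicate 3 (0.52), with DESeq2 (0.37) and with library size only (0.52).

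Ppp1r15a (Entrez gene 17872, chr7:45522917-45526268, minus strand) encodes GADD34, the inducible subunit that directs a phosphatase to eIF2α and so ends the response. It stood at 7.62, 7.16 and 9.47 RPKM in siNC and at 9.76, 10.8 and 9.97 RPKM in siQk. The ranges were apart by a small margin. Its log2 fold change was 0.18 (SE 0.14, FDR 0.35), and no alternative setting called it. The files count it over 406 exonic bases, 13.8% of its GENCODE exons, and it overlaps Tulp2, so that its level rests on a small part of the gene.

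Ern1 (Entrez gene 78943, chr11:106397620-106487796, minus strand), which encodes the sensor IRE1, stood at 3.96, 5.21 and 4.79 RPKM in siNC and at 6.35, 6.76 and 6.27 RPKM in siQk. Each siQk library lay above each siNC library. For Ern1 the log2 fold change of 0.32 (SE 0.093, FDR 0.0335 from edgeR) missed the P cutoff narrowly, at an unadjusted edgeR P of 0.0105. Of the 16 alternative settings 8 called it, among them DESeq2 (0.32), library size only (0.47) and leaving out siNC replicate 2 (0.40).

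Xbp1 (Entrez gene 22433, chr11:5520641-5525993, plus strand), the transcript that IRE1 splices, rose. It stood at 36.7, 42.9 and 43.8 RPKM in siNC and at 57.0, 61.6 and 53.1 RPKM in siQk. The lowest siQk library lay well above the highest siNC library, and the means were 41.1 ± 3.87 and 57.3 ± 4.24 RPKM (SD, n = 3 each). This was a log2 fold change of 0.33 (SE 0.070, FDR 0.0129), or 1.26-fold. The call was lost without siQk replicate 1 (0.33) or without siQk replicate 2 (0.28), and was kept in 14 of the 16 alternative settings. Tags per gene count spliced and unspliced Xbp1 together, so the spliced share is not measured by these values.

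Herpud1 (Entrez gene 64209, chr8:94386429-94395371, plus strand), which encodes an ER membrane protein of ER-associated degradation and is reached by more than 1 UPR arm, stood at 19.0, 19.2 and 25.9 RPKM in siNC and at 28.5, 29.7 and 26.7 RPKM in siQk. Replicate 3 of siNC lay just under the lowest siQk library. The log2 fold change was 0.26 (SE 0.11, FDR 0.106) and did not pass the test, but it did without siNC replicate 3 (0.39).

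**Figure D2:**
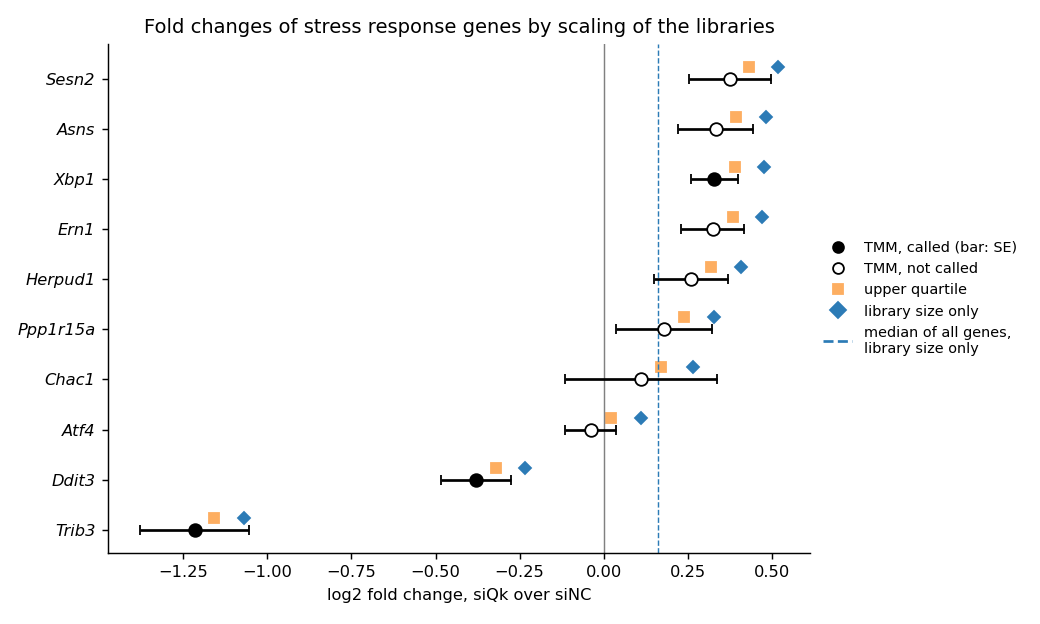
Log2 fold change, siQk over siNC, of each of the 10 genes from edgeR with TMM (circle, filled where called changed, bar for the SE), with upper quartile scaling (square) and with library size only (diamond). Trib3 and Ddit3 lie left of 0 with each scaling, Atf4 changes sign, and library size only shifts all 10 to the right, as it shifts the median of all tested genes to 0.16 (dashed line).

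The scaling of the libraries matters to the genes near 0. With library size only the median of all tested genes moved from 0.010 to 0.16, and that of the 10 genes from 0.22 to 0.37. With upper quartile factors they were 0.071 and 0.28. A change of scaling moves every gene by about the same amount, so the gap between both medians is set by construction.

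A ratio within a library needs no scaling between libraries. Levels of the other 9 genes were therefore divided by the RPKM of Atf4 in the same library, a measure chosen after the data had been seen. The ratio to Atf4 did not overlap between siNC and siQk for 6 of the 9, against 45.6% of tested genes. Xbp1, Asns, Sesn2 and Herpud1 were higher relative to Atf4 in siQk, and Ddit3 and Trib3 were lower.

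The ratio of Ddit3 to Atf4 was 0.189, 0.193 and 0.211 in siNC and 0.149, 0.165 and 0.156 in siQk, so that siQk stood at 0.792 of siNC. That of Trib3 stood at 0.441 of siNC. The transcripts of CHOP and of Trib3 were thus scarcer beside Atf4 in siQk. The ratio of Asns was 0.363, 0.319 and 0.365 in siNC and 0.455, 0.451 and 0.454 in siQk, which is 1.30 times the siNC mean. The siQk libraries were nearly equal in this ratio. Xbp1 stood at 1.29, Sesn2 at 1.34 and Herpud1 at 1.24 times siNC. The ratios of Chac1 (1.10), Ern1 (1.28) and Ppp1r15a (1.17) overlapped between the groups. A ratio shows unequal levels of a pair of transcripts and does not tell which of them differs.

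**Figure D3:**
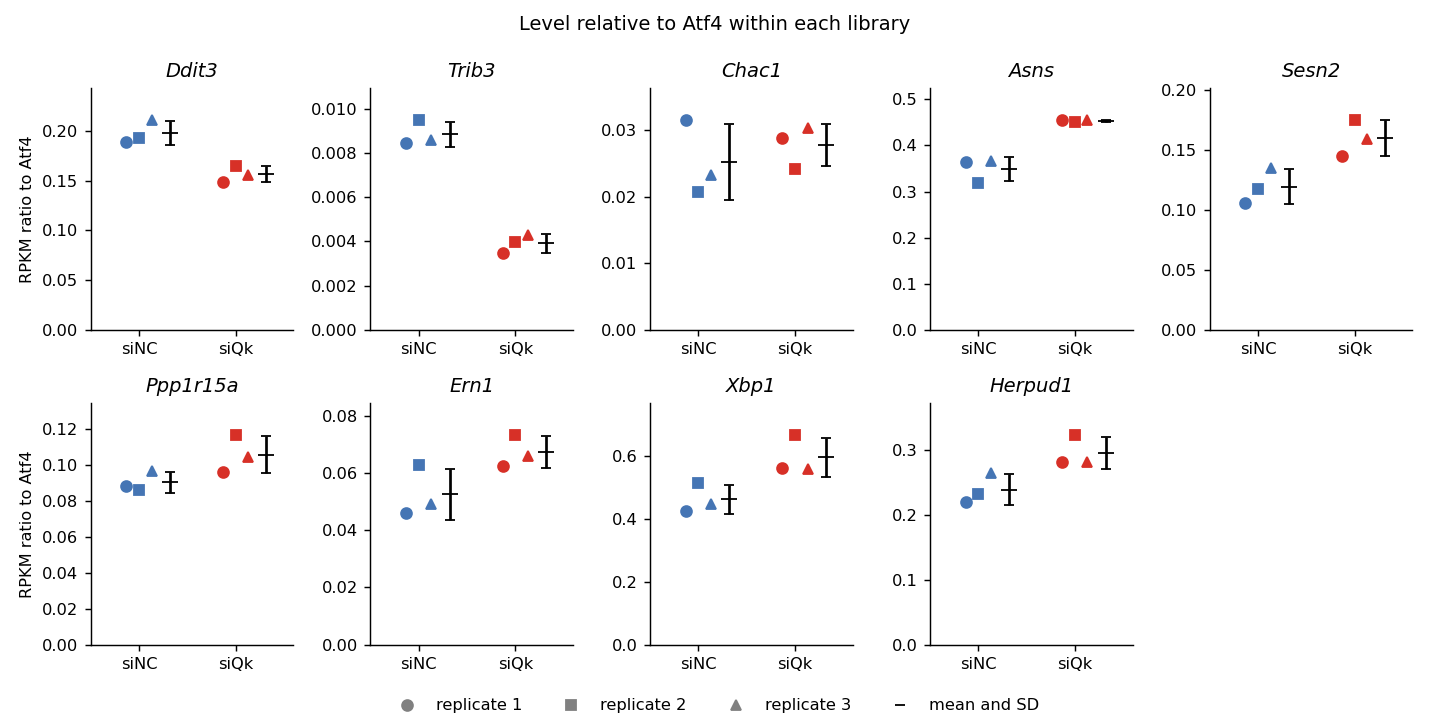
RPKM of each of 9 stress genes divided by the RPKM of Atf4 in the same library (linear axes from 0), for 3 siNC (blue) and 3 siQk (red) libraries with the mean and SD. Ddit3 and Trib3 lie lower in siQk, Asns, Sesn2, Xbp1 and Herpud1 lie higher, and Chac1, Ppp1r15a and Ern1 overlap.

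By level in siNC, per length, the order was Atf4, Xbp1, Asns, Herpud1, Ddit3, Sesn2, Ppp1r15a, Ern1, Chac1 and Trib3. Neighbours in this order did not overlap over the 3 libraries, with the exceptions of Herpud1 and Ddit3 and of Sesn2 and Ppp1r15a. In siQk, Sesn2 passed Ddit3, though the ranges of this pair overlapped. Atf4 stood above 94.1% of the tested genes in siNC and Trib3 above 6.86%. The spread between siNC libraries, as SD over mean, had a median of 14.6% over the 10 genes and 10.8% over all tested genes. In siQk it was 5.35% and 6.45%. Replicate 3 was the highest siNC library for 8 of the 10 genes, as for 49.4% of tested genes, and with TMM factors for 7 of the 10, as for 33.9%. In RPKM, the exceptions were Ern1, highest in siNC replicate 2, and Chac1, highest in siNC replicate 1. These shares were not tested against those of all genes.

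Genes with the most similar pattern over the 6 libraries were sought among 10038 tested genes with an average logCPM over 3, by Pearson r of TMM-scaled log2 CPM. The points share the same libraries, and for genes that differ between siNC and siQk a high r follows from the group difference alone. For Atf4 they were Chkb (0.992), Wdr70 (0.966) and Sla2 (0.964). For Ddit3 they were Mfhas1 (0.997), Nenf (0.995) and Sqstm1 (0.995), and for Xbp1 they were Fkbp4 (0.998), Rrp1b (0.997) and 2310079F23Rik (0.997).

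The kinases that start the ISR moved in different directions. Eif2ak4, which encodes the amino acid sensor GCN2, rose from 7.41, 7.38 and 9.19 RPKM in siNC to 12.95, 13.8 and 13.5 RPKM in siQk (log2 fold change 0.60, SE 0.083, FDR 0.00301). The ranges were far apart, and the call held in all 16 alternative settings. Eif2ak3, which encodes PERK, fell slightly, from 21.5, 23.0 and 21.8 RPKM to 20.1, 20.8 and 19.7 RPKM (log2 fold change -0.28, SE 0.057, FDR 0.0111). That call was lost without siQk replicate 1 (-0.28), without siQk replicate 3 (-0.27) and with library size only (-0.13). By edgeR, the genes of HRI (Eif2ak1, 0.18) and PKR (Eif2ak2, -0.0060) were not called. Eif2ak1 missed the P cutoff narrowly (unadjusted edgeR P of 0.0109, FDR 0.0343), and 5 of the 16 alternative settings called it, among them DESeq2, upper quartile factors (0.25) and library size only (0.34). In all, 2 of the 4 kinases were called, 1 in each direction, beside 13.8% of all tested genes called higher and 17.2% called lower.

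A list of 10 genes held those of eIF2, of its exchange factor eIF2B and of the eIF2α phosphatase, with the co-chaperone gene Dnajc3 added. Of these 10, 2 were called lower and 0 higher by edgeR with TMM, beside 31.0% of all tested genes called. The direction of the calls depended on the scaling, with 2 higher and 2 lower with upper quartile factors, and 3 higher and 0 lower with library size only. The lower ones with TMM were Ppp1r15b (-0.42), the constitutive counterpart of Ppp1r15a, and Dnajc3 (-0.38), an ER co-chaperone also known as an inhibitor of eIF2α kinases. Ppp1r15b was not called without siNC replicate 1 or 2 or without any 1 of the siQk libraries (-0.34 to -0.43), nor with library size only (-0.27) or the replicate number as a block (-0.41). Dnajc3 was not called with library size only (-0.23).

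Of 6 other transcription factors tied to the ATF4 pathway, 5 were tested and 4 fell, beside 17.2% of all tested genes called lower, with a median log2 fold change of -0.69. Nfe2l2, which encodes NRF2, the PERK-linked regulator of antioxidant genes, went from 21.6, 32.0 and 25.4 RPKM in siNC to 9.87, 10.3 and 9.33 RPKM in siQk. This was a log2 fold change of -1.57 (SE 0.13, FDR 0.000732), kept in all 16 alternative settings. Atf3, a factor induced by ATF4, went from 6.27, 5.33 and 8.90 RPKM to 5.09, 4.54 and 4.39 RPKM (log2 fold change -0.69, SE 0.18, FDR 0.0253). All siQk libraries lay below all siNC libraries, by a small margin for siNC replicate 2. The C/EBP partners Cebpb (-0.95) and Cebpg (-0.29) fell as well, while Atf5 (-0.22, FDR 0.296) was not called.

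Apart from that of Nfe2l2, these calls were near the cutoff. Atf3 was not called without siNC replicate 1 or 3 or any 1 of the siQk libraries (-0.49 to -0.76). Cebpb was not called without siNC replicate 2 or 3 or any 1 of the siQk libraries (-0.71 to -0.99), and Cebpg without siQk replicate 1 (-0.30) or 2 (-0.25). With upper quartile factors and with library size only, 1 of the 5 was called, which was Nfe2l2.

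Of 26 other known ATF4 target genes, 23 were tested, of which 3 rose and 4 fell, beside 31.0% of all tested genes called, with a median log2 fold change of 0.031, which was 0.048, 0.088 and 0.076 without siQk replicate 1, 2 and 3. The calls stood at 4 higher and 3 lower with upper quartile factors and at 5 higher and 1 lower with library size only. Those that rose were Cth (1.05), which makes cysteine from cystathionine, Slc7a5 (0.45), the importer of leucine and other large amino acids, and Aldh18a1 (0.43), of proline synthesis. Slc7a5 stood at 17.2, 14.8 and 16.5 RPKM in siNC and at 25.6, 24.2 and 24.0 RPKM in siQk. The groups were far apart relative to their spread.

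Those that fell were amino acid transporters: Slc7a3 (-0.85), of arginine and lysine, Slc7a11 (-0.50), of cystine, Slc6a9 (-0.46), of glycine, and Slc38a2 (-0.44), of neutral amino acids. Slc7a11 stood at 4.93, 3.95 and 4.26 RPKM in siNC and at 3.18, 3.40 and 3.77 RPKM in siQk. Psat1, of serine synthesis, stood at 136, 132 and 103 RPKM and at 174, 165 and 174 RPKM, and was not called (0.31, FDR 0.113). Slc7a5 and Slc7a3 were called in all 16 alternative settings. Without 1 library the others lost the call at 0.90 to 1.05 for Cth (siQk replicate 2 or 3) and at 0.40 for Aldh18a1 (siQk replicate 1). Slc7a11 lost it without siNC replicate 1 or siQk replicate 1 or 2 (-0.36 to -0.48). Slc6a9 lost it without any 1 of the siNC libraries or siQk replicate 1 or 3 (-0.38 to -0.49), and Slc38a2 without siQk replicate 3 (-0.38). With library size only Slc7a11 (-0.34), Slc6a9 (-0.31) and Slc38a2 (-0.29) were not called either, nor was Slc6a9 with upper quartile factors (-0.40).

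Of the 11 tRNA synthetases known as ATF4 targets, Gars alone was called, and was higher (0.27), beside 31.0% of all tested genes called. That call was lost without any 1 library other than siNC replicate 3 (0.23 to 0.31).

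**Figure D4:**
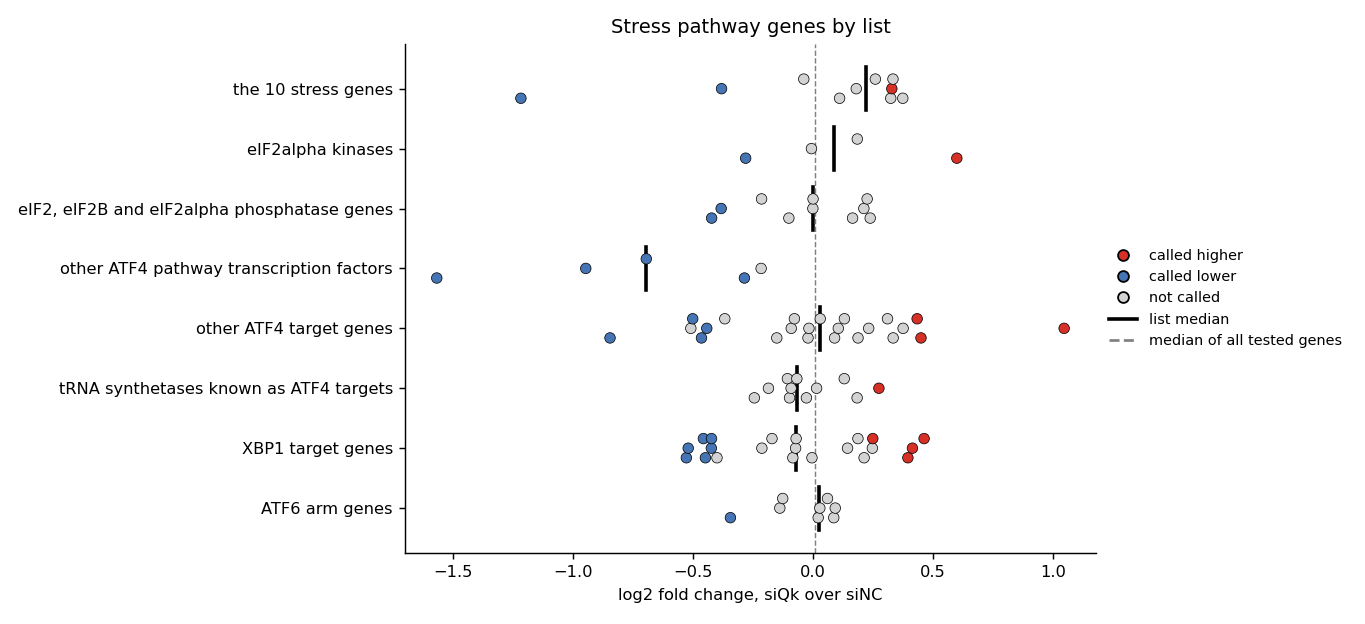
Log2 fold change, siQk over siNC, of the tested genes of 8 lists (one point per gene, red where called higher, blue where called lower, grey where not called), with the list median as a black bar and the median of all tested genes (0.010) as a dashed line. The other transcription factors of the ATF4 pathway lie to the left, at a median of -0.69, while the other ATF4 targets and the XBP1 targets hold calls in both directions.

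Targets of XBP1 split by direction. Of 22 listed genes 21 were tested, and 10 were called, 4 higher and 6 lower, beside 31.0% of all tested genes called. The median log2 fold change was -0.072, and lay between -0.16 (without siNC replicate 3) and -0.014 (without siNC replicate 2) with 1 library left out. With library size only it was 0.077 and the calls stood at 6 higher and 4 lower, beside 2989 higher and 1365 lower of all tested genes. The sign of the list median thus depended on the scaling. In both scalings it lay below the median of all tested genes, which was 0.010 with TMM and 0.16 with library size only.

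The 4 that rose were Sdf2l1 (0.46) and Hyou1 (0.40), both of chaperone complexes in the ER lumen, Sec24d (0.41), of the COPII coat, and Sec61b (0.25), of the translocation channel. Hyou1 stood at 22.9, 25.6 and 28.4 RPKM in siNC and at 35.9, 39.9 and 36.3 RPKM in siQk. Sdf2l1 stood at 25.7, 23.0 and 25.8 RPKM and at 37.1, 39.9 and 37.3 RPKM. For both, the groups were apart by more than the spread within either.

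The 6 that fell were Dnajb9 (-0.53), an ER co-chaperone that binds IRE1 and a common readout of spliced Xbp1, Ssr3 (-0.52) and Ssr1 (-0.46), of the translocon-associated complex, Sec23b (-0.45), of the COPII coat, and Derl1 (-0.42) and Edem2 (-0.42), of ER-associated degradation. Dnajb9 stood at 19.8, 23.2 and 21.1 RPKM in siNC and at 15.9, 18.3 and 15.2 RPKM in siQk (SE 0.090, FDR 0.00594). It thus lay lower in each siQk library while Xbp1 lay higher. Edem2 was the tightest of the 6, at 30.8, 31.6 and 31.3 RPKM and at 25.8, 26.3 and 25.6 RPKM.

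Dnajb9, Ssr3, Sec23b, Edem2, Hyou1 and Sdf2l1 were called in all 16 alternative settings. Ssr1 (-0.31) and Derl1 (-0.28) lost the call with library size only. Sec24d lost it without siQk replicate 1 (0.38) or 3 (0.36), and Sec61b without any 1 library other than siNC replicate 3 (0.19 to 0.27).

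**Figure D5:**
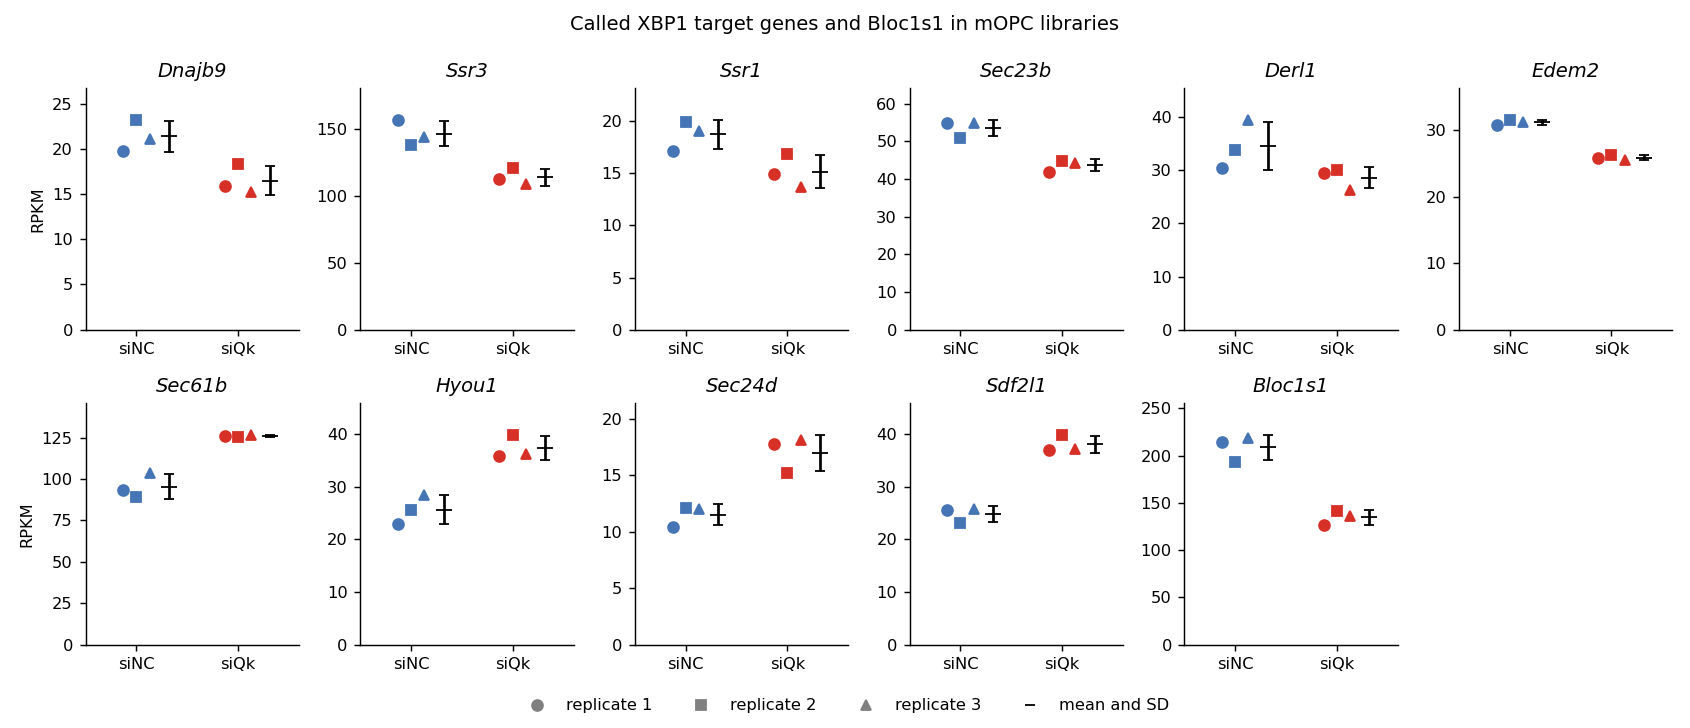
RPKM (linear axes from 0) of the 10 XBP1 target genes that were called changed, and of Bloc1s1, in 3 siNC (blue) and 3 siQk (red) libraries with the mean and SD. From Dnajb9 to Edem2 the siQk libraries lie lower, from Sec61b to Sdf2l1 they lie higher, and Bloc1s1 lies lower in siQk.

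Of 4 genes listed beside IRE1, which were its partners and the classic transcript that IRE1 degrades, 2 were tested. By edgeR 1 of the 2 was called, and was lower, beside 17.2% of all tested genes called lower. The partner gene Traf2 was not called (0.17, edgeR FDR 0.135), except with library size only (0.32). Bloc1s1, the degraded transcript, fell from 215, 193 and 218 RPKM in siNC to 126, 142 and 136 RPKM in siQk (log2 fold change -0.79, SE 0.081, FDR 0.00124), in all 16 alternative settings. It overlaps Rdh5 on the same strand, so that reads of shared stretches cannot be told apart. The gene of the ligase that joins the spliced Xbp1 transcript was not matched in the files by symbol.

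Of 8 genes of the ATF6 arm, Atf6 alone was called, beside 31.0% of all tested genes called. Atf6 was lower: 13.04, 15.4 and 14.8 RPKM in siNC and 12.8, 13.1 and 11.9 RPKM in siQk (log2 fold change -0.34, SE 0.063, FDR 0.00774). With library size only it was not called (-0.19). Hspa5, which encodes BiP, the abundant ER chaperone by which UPR activity is most often judged, stood at 205, 232 and 286 RPKM in siNC and at 271, 290 and 256 RPKM in siQk. These ranges overlap, and the log2 fold change was 0.029 (SE 0.11, FDR 0.846). The 2 tested OASIS sensors, relatives of ATF6, were not called (edgeR, 0 of 2, beside the same 31.0%). Of 4 tested CHOP targets and cell death genes, the pro-apoptotic Bcl2l11 was called, and was lower (-0.63), beside 17.2% of all tested genes called lower. It was not called without any 1 of the siQk libraries (-0.56 to -0.66) or with library size only (-0.48).

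Of 9 close relatives of the 10 genes, 8 were tested, of which 1 rose and 3 fell, beside 13.8% of all tested genes called higher and 17.2% called lower. With library size only 1 was higher and 1 lower. Trib2 rose (0.35), from 15.0, 12.7 and 14.7 RPKM to 19.6, 21.7 and 19.1 RPKM, where Trib3 fell, and Trib1 was not called (-0.26). Herpud2 (-0.52), Chac2 (-0.49) and, as above, Ppp1r15b (-0.42) fell, where Herpud1, Chac1 and Ppp1r15a were not called. Herpud2 stood at 30.7, 34.6 and 28.6 RPKM in siNC and at 22.6, 26.5 and 24.0 RPKM in siQk. It was called in all 16 alternative settings and Chac2 in all but library size only (-0.34). Trib2 was not called without siNC replicate 2 or 3 or without any 1 of the siQk libraries (0.27 to 0.39), and the settings in which Ppp1r15b lost its call are those given with the phosphatase genes. Sesn1 (0.063) and Sesn3 (0.20) were not called, and Ern2 was too low to be tested.

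Marker genes of the cell types that such cultures could hold also differed between the groups. Sums given here are of RPKM, which carries no TMM factor and so lies higher in siQk than the fitted fold changes do. The 8 OPC markers summed to 1023 to 1100 RPKM in siNC and to 1217 to 1370 RPKM in siQk. Whether these sums stay apart with TMM factors was not tested, and the fitted median log2 fold change of the 8 was 0.13. Their members differed: Cspg4, Olig1 and Olig2 were called higher, Lhfpl3 was called lower (-1.07), and the other 4 were not called. The 8 oligodendrocyte markers summed to 3307 to 5823 RPKM and to 1363 to 2065 RPKM, with 7 of the 8 called lower. The 6 astrocyte markers summed to 97.1 to 156 RPKM and to 30.7 to 34.03 RPKM, with 4 of the 5 tested called lower. The 6 neuron markers summed to 102 to 172 RPKM and to 81.4 to 120 RPKM, most of it Tubb3, which was not called (-0.57). Of the 5 tested, the far less abundant Snap25 (2.64) and Nefl (1.61) were called higher. Among all tested genes 13.8% were called higher and 17.2% lower. Microglia markers reached at most 3.33 RPKM and fibroblast and vascular markers at most 0.304 RPKM in sum. The only microglia marker tested, P2ry12, was called lower (-3.16, edgeR FDR 0.00886). It stood at 0.669, 3.20 and 1.19 RPKM in siNC and at 0.152, 0.186 and 0.287 RPKM in siQk. The defining markers C1qa and Cldn5 were at 0 in all libraries. In these bulk RNA samples, fewer cells of a type and less RNA per cell cannot be told apart, and the part of the oligodendrocyte and astrocyte markers in the values of the stress genes was not tested. The siNC replicate 3 library, in which 8 of the 10 stress genes were highest among siNC, had the lowest oligodendrocyte and the highest astrocyte marker sum of siNC. Single markers did not all follow these sums. Gfap stood at 51.4, 54.6 and 101 RPKM in siNC, and Slc1a2 and Slc1a3 were also highest in replicate 3. Aldh1l1 (7.88, 6.96 and 6.23 RPKM) and Aqp4 were lowest there. Opalin (180, 82.9 and 115 RPKM) and Cldn11 (1101, 737 and 834 RPKM) were lowest in siNC replicate 2.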

How the data were processed

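RNA of 6 mOPC libraries, 3 siNC and 3 siQk, was analysed. Polyadenylated RNA was sequenced with a TruSeq v2 kit, which keeps no strand. Per the paper's methods, the authors aligned reads to mm10 with OLego and counted genes with Quantas; their versions are not given in the sources used here. The files the authors deposited hold, per gene and library, an estimated count of tags (not normalized), the exon length and the RPKM, which equals the recomputed value within a relative difference of 1.03e-14. Libraries of one group differed by more than sampling noise (chi-square per degree of freedom of 38.0 or more), and each counted as 1 replicate.

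Estimated counts were rounded to integers, and genes whose average logCPM exceeded 0 were tested with edgeR 4.0.16 (limma 3.58.1, R 4.3.3) by the quasi-likelihood test with TMM factors and the group as the only term. Calls needed P below 0.01 and, after Benjamini-Hochberg adjustment over the tested genes, FDR below 0.1. SEs are the absolute log2 fold change over the square root of F. The step was tested on simulated data for this comparison. Of 200 changed genes out of 12494, 98.5% were called, and 10.0% of the calls were unchanged genes. Median log2 fold changes in that run were 1.02 for raised and -1.01 for lowered genes. That run held far fewer changed genes than were called in the data, used the same dispersion for every gene, and changed only genes more abundant than Trib3. How often a change is called at the low level of Trib3 was not tested. Nor were smaller differences, such as those of the other genes of the 10. Depth was 58166490 tags or more per library, and with 3 libraries a group the spread between them limits precision.

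The 10 genes and the gene lists were chosen with earlier results of these data known. Named were the 10 genes, Qk, the close relatives, from each pathway list up to 3 called genes with the highest and 3 with the lowest fold changes, genes with a defining role, and the 3 genes most like Atf4, Ddit3 and Xbp1. Named outside that rule, after their values were seen, were Eif2ak1, Eif2ak2, Cebpg, Slc38a2, Traf2, Sec61b, Sec23b, Derl1, Edem2, Rn45s and the single cell type markers. Sequences and coordinates came from RefSeq tables (GRCm38.p6). Alternatives were DESeq2 1.42.0, the likelihood ratio test, other scalings, filters and cutoffs, thinning to the smallest library, the replicate number as a block and each library left out.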

Additional observations from a re-analysis of the deposited data

How the results depend on the processing

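Over the log2 fold changes of the 10 genes and Qk, 145 of 176 alternative values kept direction and call, 13 lost the call, 13 gained it and 5 turned sign without a call. The sign turned for Atf4 with upper quartile factors (0.022), library size only (0.11), without siNC replicate 3 (0.0044) and without siQk replicate 2 (0.0024), and for Chac1 without siNC replicate 2 (-0.058); with 1 library left out, Atf4 ranged from -0.095 to 0.0044 and Chac1 from -0.058 to 0.32. Of the 10 genes, 5 were called with DESeq2 (3 higher) and 5 with library size only (4 higher, 1 lower), and 1 to 4 with 1 library left out (0 to 3 higher, 1 to 2 lower). Of all tested genes, 39.1% were called with DESeq2, 34.8% with library size only, and 19.8% to 29.7% with 1 library left out. There were 2 called higher with the likelihood ratio test, upper quartile factors, no filter, filterByExpr and an FDR below 0.05, and 1 called lower with upper quartile factors, no filter, filterByExpr, thinning and the replicate block. Over these settings the share of all tested genes called ran from 22.4% (replicate block) to 36.9% (FDR below 0.05), with 32.1% for upper quartile factors. Same-numbered libraries did not deviate together (correlations of deviations of -0.053, -0.15 and -0.34). With the replicate block 2796 genes were called in place of 3879, which is 22.4% of tested genes in place of 31.0%. Called in the lists were then 1 of the eIF2 list (eIF2, eIF2B and phosphatase genes with Dnajc3) and 1 of the other ATF4 pathway factors. The ATF4 targets, the synthetases (edgeR) and the close relatives held 4, 0 and 2 calls. With library size only these were 1 of the factors, 2 synthetases, 2 of the IRE1 partners, 0 ATF6 arm genes, 0 CHOP target genes and 2 relatives. With upper quartile factors they were 4, 1 and 2 of the eIF2 list, the factors and the synthetases. DESeq2 and an FDR below 0.05 each called 2 synthetases. With 1 library left out, calls ranged from 1 to 2 kinases, 1 to 3 genes of the eIF2 list, 1 to 3 factors, 4 to 8 ATF4 targets, 0 to 1 synthetases, 0 to 1 CHOP targets and 2 to 4 relatives. The cause of these shifts was not tested. Lower genes were 55.4% of all calls with TMM, 44.4% with upper quartile factors and 31.4% with library size only. Depth limits Trib3 most, with 62 tags in the smallest value.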
